A study of Sus scrofa with 67 samples.

Results

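The 150 genes described here were the most even genes of the pig reproductive tract by 1 simple measure, the ratio of their highest to their lowest mean level over 3 tissues and 7 days of the oestrous cycle. The level was taken as CPM, which is the share of all counts of a library that fell on a gene, scaled to the same total in every library. Means were taken in each of 21 groups of a tissue and a day, and genes with a mean of at least 30 CPM in all 21 groups were ranked by that ratio. Of the 25322 Ensembl genes of the table, 3501 reached 30 CPM in every group, and the 150 with the smallest ratio, 4.28% of these, are called the members. Of the members, 117 could be paired with a gene symbol and 33 are known here by identifier only. Because the levels themselves chose the members, every level given below is a description, and no test of the same libraries is read as evidence that a member was even or uneven.

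Endometrium, ovary and oviduct were collected from crossbred Landrace × Yorkshire gilts, which are young female pigs, at 7 times of the oestrous cycle, 3 days apart, from day 0, the onset of oestrus, to day 18. The labels name no treatment, and the groups are given by tissue and day only. The endometrium came from the middle of a uterine horn and was freed of muscle, the oviduct piece was the ampulla, and the ovary was taken whole. The count table holds 66 libraries of poly-A RNA, 22 per tissue, with 3 libraries in 14 of the groups, 2 in the ovary on day 3 and in the oviduct on day 6, and 4 in the other 5. Libraries are named below by tissue, day and their number in the table. No source used here ties the libraries to single animals, so p-values measure the spread between libraries only. The gilts were 6 to 8 months old. The study's methods give 21 gilts, 3 per day, and the series' design text gives 23, so groups of 4 libraries go beyond the 3 gilts that the methods name for a day. The methods describe taking the 3 tissues from these gilts, but it is not stated which libraries share a gilt. Between tissues, deviations of libraries with the same number on a day were weakly correlated (median 0.123, against -0.052 for different numbers). The main tests treat libraries as independent, so tissues that share a gilt would be counted there as separate animals.

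A reference gene is a gene whose RNA is taken as constant, so that other genes can be measured against it in assays such as quantitative PCR. Genes used this way usually serve every cell, in energy metabolism, the cytoskeleton, translation or protein turnover. In sequencing, a level is a share of all reads, so that a few genes with very many reads in a tissue lower the share left for the rest. In the female tract the oviduct epithelium is known for secreting oviductin, the product of OVGP1, and the corpus luteum of the ovary for making steroid hormones.

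The total count per library lay between 8962103 and 13442083. The lowest count of a member in any library was 118, where counting error alone is 9.21%, and the median count was 1084, where it is 3.04%; the spread between libraries was therefore larger than the counting error for most values. The medians of defining genes were highest in the tissue of the label. Median OVGP1 was 14219 CPM in the oviduct, 57.8 in the ovary and 2.62 in the endometrium, and HOXA11, a uterine homeobox gene, had a median of 44.3 CPM in the endometrium and 0 in the other tissues. CYP11A1, which makes the first step of steroid synthesis, had a median of 3274 CPM in the ovary, 41.1 in the oviduct and 4.08 in the endometrium. Of the other cells a sample could hold, the leukocyte gene PTPRC had medians between 13.6 and 18.5 CPM over the tissues, and the smooth muscle gene ACTG2 had medians of 1490 CPM in the oviduct, 43.1 in the ovary and 16.1 in the endometrium; their part in the levels of the members was not tested. Some libraries stood apart. Ovary day 15 number 1 held 245 CPM of the ciliary gene FOXJ1, against a median of 4.52 over the ovary libraries, and 18.2 CPM of HOXA11. It also held 1715 CPM of OVGP1 and 974 of the smooth muscle gene MYH11. Other ovary libraries held these too, with 1971 CPM of OVGP1 in day 0 number 2 and 403 of MYH11 in day 15 number 2. Ovary day 15 number 1 thus held RNA of genes that mark the other tissues, and whether the piece was mixed or the label wrong was not tested. Ovary day 12 number 1 had 167 CPM of CYP11A1, the lowest of the ovary, against 7151, 9045 and 5159 CPM in the other libraries of that day. What set it apart was not tested. Oviduct day 18 number 2 had 8.95 CPM of HOXA11, the most of any oviduct library, and 4.0 CPM of CYP11A1, the least of them. The rule was repeated with single libraries left out. Of the members, 147 were chosen again without ovary day 15 number 1, 128 without ovary day 12 number 1 and 131 without oviduct day 18 number 2. In bulk tissue, fewer cells of a type and less RNA per cell cannot be told apart.

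The ratio of the highest to the lowest group was between 1.28 and 1.61 over the members, with a median of 1.53, while over all 3501 genes at the floor the median was 2.52 and the highest was 237. Of the members, 13 had a ratio under 1.4 and 52 a ratio under 1.5. The edge of the list was not a gap. Just inside it were ENSSSCG00000029294 and FAM120A, which codes for an RNA-binding protein, both with a ratio of 1.61, and MON2, a regulator of traffic between Golgi and endosomes, whose group means ran from 67.6 CPM in the ovary on day 12 to 109 CPM in the endometrium on day 9 (ratio 1.61). Just outside it were PRKAR1A, a regulatory subunit of protein kinase A, from 257 to 415 CPM, FASTK from 59.6 to 96.1 CPM and RABL6 from 67.6 to 109 CPM, again with a ratio of 1.61 for each.

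**Figure D1:**
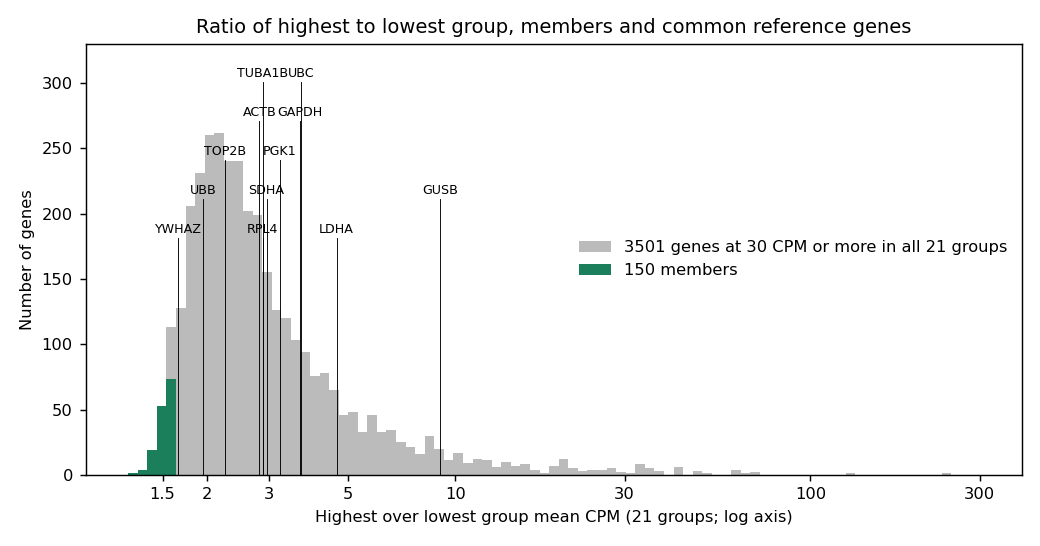
Number of genes (y axis) by the ratio of highest to lowest group mean CPM over 21 groups (x axis, log scale), for the 3501 genes at 30 CPM or more in every group (grey) and the 150 members (green), with black lines at 12 common reference genes. The members, 4.28% of the genes at the floor, fill the left end up to 1.61. All 12 marked genes lie to the right of it, from YWHAZ at 1.65 to GUSB at 9.07.

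The member with the smallest ratio was RRAGA, a small GTPase that brings the growth kinase complex mTORC1 to the lysosome when amino acids are present. In the endometrium, RRAGA was at 89.6, 99.6 and 95.3 CPM on day 0, at 92.1, 79.7 and 102 on day 3, at 111, 93.7 and 111 on day 6, at 105, 89.2 and 99.1 on day 9, at 97.2, 104 and 115 on day 12, at 76.0, 106, 97.9 and 74.7 on day 15, and at 79.2, 97.3 and 88.0 on day 18. In the ovary, RRAGA was at 88.4, 73.1 and 102 CPM on day 0, at 98.0 and 96.6 on day 3, at 105, 103 and 99.0 on day 6, at 86.2, 90.6 and 93.7 on day 9, at 107, 100, 86.5 and 108 on day 12, at 104, 95.5, 101 and 79.9 on day 15, and at 78.3, 92.2 and 82.3 on day 18. In the oviduct, RRAGA was at 91.8, 104 and 94.6 CPM on day 0, at 80.7, 85.2 and 105 on day 3, at 79.9 and 88.0 on day 6, at 81.4, 86.1 and 95.6 on day 9, at 91.5, 80.1, 82.1 and 80.3 on day 12, at 91.2, 82.9, 99.6 and 99.1 on day 15, and at 98.5, 120 and 101 on day 18. The ranges of the 3 tissues overlapped almost whole, and the group means lay between 83.5 CPM in the oviduct on day 12 and 107 CPM in the oviduct on day 18. Here and below, highest and lowest groups are the extremes picked out of 21, so nothing is read from whether their libraries overlap. Within a group the libraries of RRAGA had a coefficient of variation (CV, the SD over the mean) of 9.82%. In the tests described further on, which use the libraries that chose it, RRAGA was called for days in the oviduct (edgeR, adjusted p = 0.0135) and the ovary (0.0364), the latter lost without any of 14 of the 22 ovary libraries, and both were lost on total counts. Its highest value, 120 CPM, came from oviduct day 18 number 2.

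RRAGA was 1 of 16 members with a role in growth and kinase signalling. MTOR, the kinase of mTORC1 itself, was also a member, with group means from 89.3 CPM in the ovary on day 18 to 141 CPM in the endometrium on day 3 (ratio 1.58), and so was AKT1S1, an inhibitory subunit of that complex, from 44.2 to 62.1 CPM (ratio 1.41). Ranked 6 was PRKACA, the catalytic subunit of protein kinase A, which carries the cyclic AMP signal of the gonadotrophins. Its group means ran from 91.5 CPM in the ovary on day 6 (95.5, 102 and 76.9 CPM) to 124 CPM in the oviduct on day 0 (113, 147 and 113 CPM), a ratio of 1.36. In the oviduct on day 0, 1 library stood above the others. Its regulatory partner PRKAR1A, above, was the first gene outside the list.

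**Figure D2:**
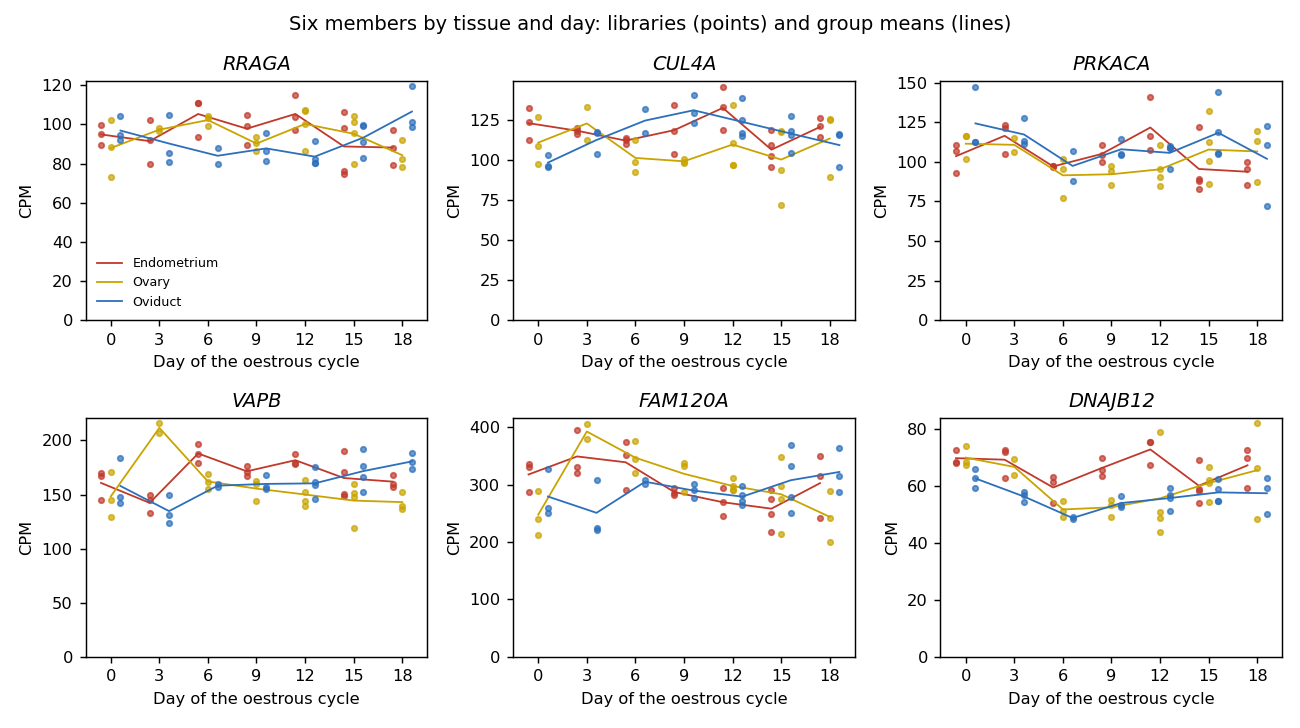
CPM (y axis, from 0) of 6 members by day of the oestrous cycle (x axis) in endometrium (red), ovary (yellow) and oviduct (blue); points are libraries and lines join group means. RRAGA, CUL4A and PRKACA, ranked 1, 3 and 6, show 3 interleaved lines, while VAPB and FAM120A have a peak in the ovary on day 3 with means of 212 and 393 CPM.

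The ubiquitin system, the proteasome and the chaperones, which mark, degrade and fold proteins, gave 21 members. CUL4A, the scaffold of a ubiquitin ligase, was ranked 3. Its group means ran from 98.4 CPM in the oviduct on day 0, with libraries at 95.4, 103 and 96.4, to 133 CPM in the endometrium on day 12, with libraries at 146, 133 and 119. TRPC4AP, which serves the same ligase as a substrate receptor, was ranked 4 and had the smallest spread between libraries of a group of any member, with a CV of 6.98%. It was at 208, 209 and 216 CPM in the oviduct on day 3, its lowest group, and at 277, 272 and 308 CPM in the endometrium on day 12, its highest, a ratio of 1.35. Members of the same machinery were DDB1, the adaptor that binds CUL4A (246 to 390 CPM, ratio 1.58), and COPS4, a subunit of the signalosome that deactivates cullins (78.6 to 116 CPM, ratio 1.48). The proteasome was represented by PSMC5 and PSMD4 of its regulatory particle, with ratios of 1.52 and 1.57, the folding machinery by CCT7 (1.53) and DNAJB12 (1.49), and the segregase p97 by its cofactors UBXN6, UBXN8 and NSFL1C (1.58, 1.59 and 1.59). RNF10, a ubiquitin ligase, had the second smallest spread within groups, 7.21%, and was at 384 and 374 CPM in the ovary on day 3 and at 252, 262 and 242 CPM in the oviduct on day 18.

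The secretory pathway, membrane traffic and autophagy formed the largest set, with 31 members. No share over all genes at the floor was computed for these roles, so nothing is read from the size of a set. From the early pathway came COPA, of the coat of retrograde vesicles (269 to 398 CPM, ratio 1.48), SEC24B, of the coat of vesicles leaving the endoplasmic reticulum (37.8 to 59.8 CPM, 1.58), and KDELR1, the receptor that returns escaped proteins (166 to 242 CPM, 1.46). SNX14, a sorting nexin ranked 5, ran from 90.6 to 123 CPM (ratio 1.36), and its libraries spread by 17.9% within groups. UBAP1, of the ESCRT-I sorting complex, and RAB3GAP1, which regulates RAB GTPases, were ranked 9 and 10, both with a ratio of 1.38. The RAB GTPases RAB8A, RAB10 and RAB6A had ratios of 1.51, 1.55 and 1.58, the retromer subunit VPS26A 1.56, and AP2A2, of the clathrin adaptor of the cell surface, 1.5. VAPB, a tether between the endoplasmic reticulum and other membranes, is described with the tests.

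Translation and RNA processing gave 17 members. EIF4G2, an initiation factor for translation, took the most counts of any member, with a mean of 1329 CPM; CPM is not per length, so this says nothing of its level against another gene. Its lowest group was the endometrium on day 12 and its highest the ovary on day 15 (ratio 1.57), and single libraries of the ovary ran from 1060 to 2425 CPM against 944 to 1461 in the endometrium. EIF4H, a helicase cofactor in initiation, ran from 406 to 613 CPM (ratio 1.51), and MRPS10, a protein of the mitochondrial ribosome ranked 7, from 42.8 to 58.2 CPM (ratio 1.36). Enzymes of 3' end formation were present with CPSF3, the nuclease, and PAPOLA, the poly(A) polymerase, at ratios of 1.55 and 1.56. Transcription, chromatin and DNA repair gave 10 members, among them SUPT5H and CTR9 of the elongation machinery (1.56 and 1.59) and GTF2E2 of the initiation complex (1.51). Mitochondria and metabolism gave 10, among them OAZ1, the antizyme that limits polyamine synthesis, which took the second most counts with a mean of 546 CPM and ran from 445 to 654 CPM (ratio 1.47). PDHA1, of pyruvate dehydrogenase, had a ratio of 1.55. The last 4 with a role belonged to the cytoskeleton and cell adhesion, and 8 members with a symbol, KIAA2013 at rank 2 among them (103 to 139 CPM, ratio 1.35), were given no role. The roles were assigned by hand after the members were known, and members named for a role were picked after their values were seen. OAZ1 and OAZ2, MORF4L1 and MORF4L2, and YWHAQ and YWHAB are pairs of related genes that are both members; reads shared within a pair could have been split between them, and neither the strand setting nor the handling of such reads is stated, so their separate values are uncertain.

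Gene families were compared with all genes at the floor that have a symbol, of which 117 of 2840, or 4.12%, were members. Vesicle coats and sorting proteins were members in 8 of 62 cases, the ubiquitin families in 4 of 49, proteasome subunits in 2 of 20 and translation factors in 2 of 28. The mitochondrial ribosome had 1 of 15, the vacuolar ATPase 1 of 6 (ATP6V1C1) and the chaperonin 1 of 7. Ribosomal proteins had 0 of 29, the respiratory chain and ATP synthase 0 of 40, splicing factors 0 of 29, nuclear pore and transport 0 of 17, and RNA polymerase II and Mediator 0 of 14. The median ratio of the ribosomal proteins was 2.42 and that of the respiratory chain 2.36, beside 2.53 for all genes with a symbol. The vesicle proteins had a median of 1.92, proteasome subunits and the chaperonin 1.96 each, the mitochondrial ribosome 2.0, nuclear pore and transport 2.1, translation factors 2.11, the ubiquitin families 2.12, RNA polymerase II and Mediator 2.21, the vacuolar ATPase 2.27 and splicing factors 2.3. These are counts without a test.

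Of 22 usual reference genes listed, 14 had an identifier and 12 reached the floor, and 0 of the 14 were members. Members were 4.12% of all genes at the floor with a symbol, so nothing is read from the 0. The remaining 8 of the 22 could not be looked for, since 33 members have no symbol. All ratios given here are on total counts. The nearest to the list was YWHAZ, a 14-3-3 protein, whose group means ran from 277 to 459 CPM, a ratio of 1.65 at rank 217; its relatives YWHAQ and YWHAB were members at 1.52 and 1.61. UBB, a polyubiquitin gene that served the study as a reference in PCR, ran from 1137 CPM in the ovary on day 3 to 2223 in the oviduct on day 9, a ratio of 1.96 at rank 722. ACTB, the cytoskeletal actin, had a ratio of 2.81, and GAPDH, of glycolysis, ran from 216 CPM in the oviduct on day 12 to 786 CPM in the ovary on day 3, a ratio of 3.65. PGK1 and LDHA, of the same pathway, were also highest in the ovary on day 3, with ratios of 3.20 and 4.64. GUSB, a lysosomal enzyme, ran from 47.9 CPM in the endometrium on day 9 to 435 CPM in the ovary on day 18, a ratio of 9.07. The libraries of the 14 genes spread within groups by between 13.95% for SDHA and 45.1% for TFRC. UBB was at 14.0%, YWHAZ at 14.8%, GAPDH at 19.8% and LDHA at 29.8%. The median was 13% over the members and 19.0% over all genes at the floor. TFRC was below 30 CPM in at least 1 group, and RPL7 and TBP, which the study used in PCR, were not paired with an identifier and are not analysed here.

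The rule used group means only, so a member could still vary between the libraries of a group. Over the members the within-group CV had a median of 13% and ran up to 22.4%, against a median of 19.0% over all genes at the floor; the means carry this spread too, so the comparison is not independent of the rule. The largest CVs belonged to NEMF, which acts in ribosome quality control, and RANBP6, an importin relative. NEMF was at 45.7, 49.0 and 10.7 CPM in the endometrium on day 12 and at 44.8, 21.1 and 48.1 CPM in the oviduct on day 18. In each group 1 library was far under the others. RANBP6 was at 57.1, 60.5 and 26.0 CPM in the endometrium on day 12, with the same library low, and at 27.2, 41.6 and 86.3 CPM in the ovary on day 0. Between single libraries the ratio of highest to lowest had a median of 2.21 over the members and ran from 1.55 for TRPC4AP to 5.50 for NEMF, against a median of 4.05 over all genes at the floor. Some libraries held many of these extremes. Oviduct day 18 number 2 was the lowest of the 66 libraries for 18 members and the highest for 23, endometrium day 12 number 3 the lowest for 12 and the highest for 13, and ovary day 9 number 3 the lowest for 23 and the highest for 1.

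Averaged over days, the tissues differed little, with a median ratio of the highest to the lowest tissue of 1.15 over the members against 1.49 over all genes at the floor. Across days the median ratio over the members was 1.29 in the endometrium and 1.33 in both the ovary and the oviduct. The endometrium had the highest tissue mean for 61.3% of the members and 49.6% of all genes at the floor, the ovary for 16.7% and 24.9%, and the oviduct for 22% and 25.5%. Among single groups, members were most often highest in the endometrium on day 18 and the ovary on day 3, with 20 members or 13.3% each, against 7.17% and 7.74% of all genes at the floor. They were most often lowest in the oviduct on days 3 and 0, with 23 and 20 members, and in the ovary on days 9 and 6, with 18 and 15. Among all genes at the floor the lowest group was also the ovary on day 6 for 20.3% and on day 9 for 17.1%, against 10% and 12% of the members, and the oviduct on day 3 for 11%, against 15.3%. The groups in which members were most often lowest were also the most frequent lowest groups over all genes at the floor.

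**Figure D3:**
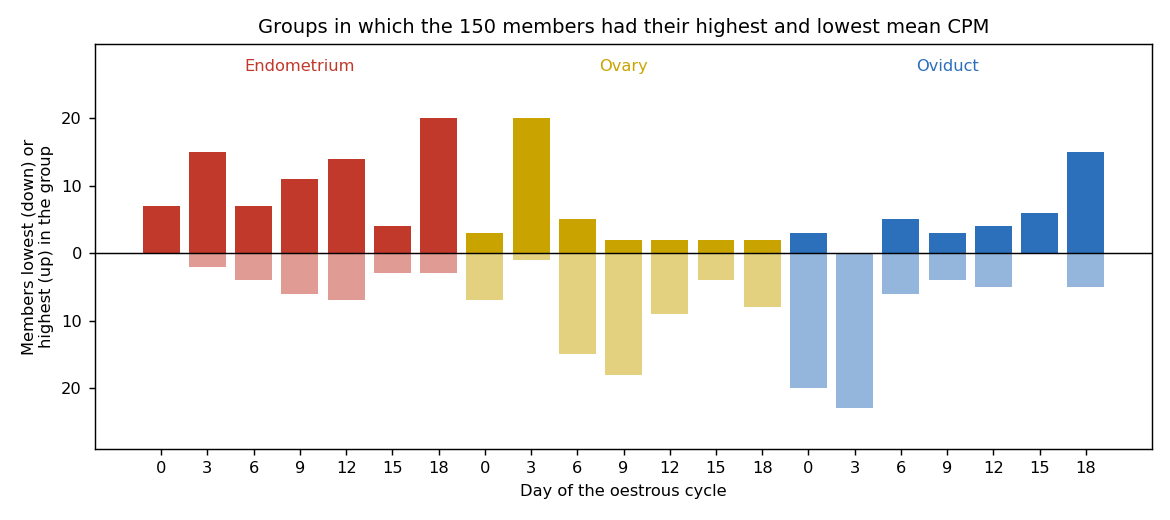
Number of the 150 members whose highest group mean (dark bars, up) or lowest group mean (pale bars, down) fell in each group, by tissue (colour) and day of the oestrous cycle (x axis). The lowest means gathered in the oviduct on days 0 and 3 (20 and 23 members) and the ovary on days 6 and 9 (15 and 18 members).

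In these groups a few genes held many of the counts. The 10 genes with the most counts held between 7.26% and 11.7% of a library in the endometrium. They held 17.4% to 21.2% in the ovary on days 6 and 9 and 20.2% to 22.7% in ovary day 12 numbers 2 to 4, but 7.83% in ovary day 12 number 1. In the oviduct they reached 27.5% in day 3 number 2, where OVGP1 alone stood at 203311 CPM. OVGP1 was at 168130, 51296 and 143335 CPM in the oviduct on day 0 and at 154195, 203311 and 15703 CPM on day 3, and the median log2 deviation of the members from their means was -0.22, -0.03 and -0.19 on day 0 and -0.24, -0.31 and 0.06 on day 3. On each of these days the library with the least OVGP1 was the one in which the members were least low. CPM is a share of the total, so this bears on no single member. The summed share of counts on the members was between 1.72% in oviduct day 3 number 2 and 2.47% in an ovary library of day 0. When OVGP1 was left out of the column totals, an alternative chosen after seeing the data, the members lowest in the oviduct on day 0 went from 20 to 2 and those lowest on day 3 from 23 to 1, while those lowest in the ovary on days 6 and 9 became 16 and 26. That step raises every gene of a library by the same factor, so it shows how far the lowest group depends on the total and bears on no single member. When the 10 genes with the most counts were left out of each total, also chosen after seeing the data, the members lowest in these 4 groups were 3, 4, 5 and 9. The first change kept 113 of the 150 members and the second 95. What set the level of the members in the oviduct or the ovary was not tested.

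**Figure D4:**
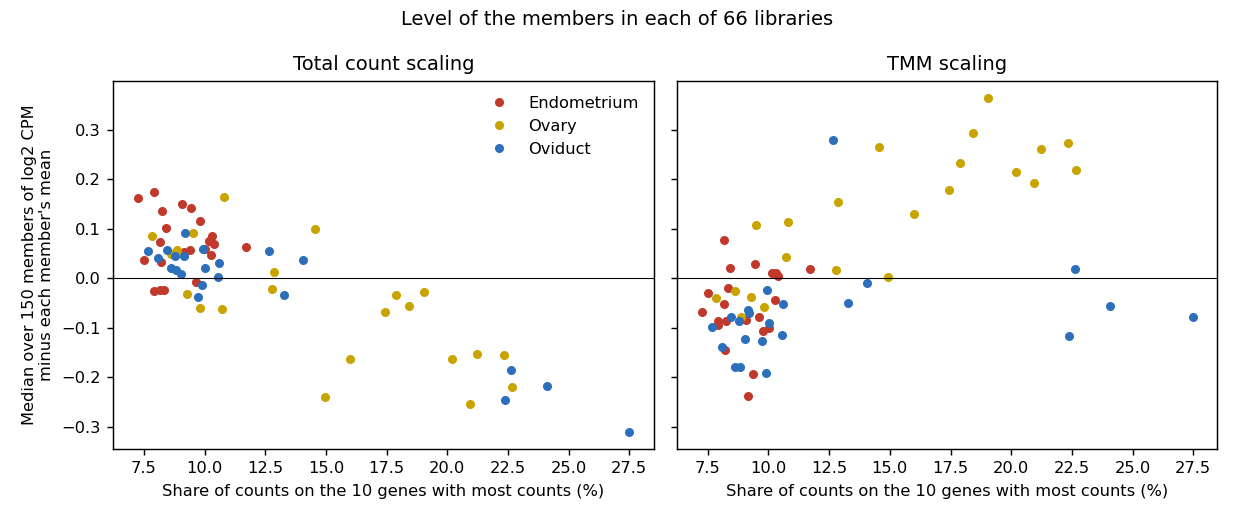
Median over the 150 members of log2 CPM minus each member's mean (y axis) against the share of counts on the 10 genes with the most counts (x axis, %), 1 point per library, coloured by tissue, with CPM from total counts (left) and from TMM-scaled totals (right). On the left the level falls to -0.31 in the library with 27.5% of its counts on 10 genes, and on the right the ovary libraries with high shares lie above 0, up to 0.36.

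TMM is a scaling that sets libraries to the level of most of their genes. TMM factors were between 0.73 and 1.10 in the ovary, between 0.85 and 1.15 in the oviduct and between 1.0 and 1.22 in the endometrium. On TMM-scaled CPM the same 150 members had ratios with a median of 1.62 and up to 2.35, and only 39 of them would have been chosen. With the size factors of DESeq2, 34 would have been chosen. RRAGA, the first of the list, had a ratio of 1.81 on the TMM scale, RAB10 2.24, RAB6A 2.17 and RNF10 2.04. CUL4A had 1.34 on that scale against 1.35 on total counts, and UBXN8 had 1.32 against 1.59. The members thus parted into those that stayed within a ratio of 1.61 under both scales, such as CUL4A and UBXN8, and those that did not, such as RRAGA.

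The evenness of genes chosen this way was also measured in libraries that had no part in the choice, a division chosen after seeing the data. The number 3 is the only library number present in all 21 groups. The 150 genes chosen on the libraries numbered 3 alone had a median ratio of 1.78 in those libraries and of 1.74 in the remaining ones, where all genes at the floor had a median of 2.68. The 150 chosen on the remaining libraries had a median ratio of 1.6 there and of 1.98 in the libraries numbered 3, where the median of all genes was 3.24. On total counts, both chosen sets thus had a lower median ratio than all genes at the floor in libraries not used to choose them. Neither set is the list of members, so this does not measure the evenness of the members themselves. The set chosen on the libraries numbered 3 had about the same ratio outside them, where the median of all genes fell from 3.16 to 2.68. For the other set the ratio rose from 1.6 to 1.98, where the median of all genes also rose, from 2.66 to 3.24. Of the 150 members, 70 were chosen by the libraries numbered 3 alone and 97 by the remaining ones. Leaving out a single library kept between 118 members, without oviduct day 3 number 3, and all 150.

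The members were also looked up in tests of all genes with edgeR's quasi-likelihood test on TMM-scaled counts, where a gene was called at an adjusted p (Benjamini-Hochberg over all genes tested) under 0.05. These tests use the libraries that chose the members, so their counts are given beside the share of all genes called and nothing is read from them. A joint test over the 7 days called 30 of the 150 members in the endometrium, where 53.8% of all genes were called. In the ovary it called 8 members, where 15.2% of all genes were called, and in the oviduct it called 30, where 20.8% were. With counts scaled to the totals 21, 0 and 13 members were called, where 54.3%, 14% and 25.3% of all genes were. Beside the 0 of the ovary, edgeR gave 4 members an unadjusted p under 0.05 on that scale, and DESeq2 called 32, where it called 30.4% of all genes. DESeq2 called 57 members over days in the endometrium, where it called 57.7% of all genes, and 55 in the oviduct, where it called 32.9%. The largest difference from day 0 over the days had a median of 0.65 on the log2 scale over the called members of the ovary, 0.50 in the oviduct and 0.42 in the endometrium, against 1.82, 1.06 and 1.15 over all called genes of those tissues. In the oviduct, 29 of the 30 called members were lower on day 3 than on day 0 and 25 were higher on day 18, on the TMM scale, where 59.3% of all called genes were lower on day 3 and 57.3% higher on day 18. These are the 30 members called with TMM, of a count that was 13 on total counts and between 6 and 39 on leaving out a library. On leaving out a library, the share of all genes called ran from 48% to 61.7% in the endometrium. It ran from 8.49% to 28.2% in the ovary and from 13.6% to 26.5% in the oviduct. Single libraries moved the counts of called members by more than 1.5 times. In the endometrium 8 did so, to 15 without day 3 number 1, to 18 or 19 without day 0 number 3, day 6 number 1, day 9 numbers 2 and 3 and day 15 numbers 1 and 4, and to 47 without day 15 number 2. In the ovary 18 of the 22 did so, that is every library but day 0 number 3 and day 15 numbers 2, 3 and 4, to between 1 and 5 members, except for day 12 number 1, without which 26 members were called and 28.2% of all genes. In the oviduct 15 did so, that is every library but day 3 number 3, day 9 number 2, day 15 numbers 2, 3 and 4 and day 18 numbers 1 and 3, to between 6 and 17 members.

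The smallest adjusted p of the day tests over the members belonged to VAPB in the endometrium (0.00345), FAM120A in the ovary (0.0148) and DNAJB12 in the oviduct (0.00888), all from edgeR on the TMM scale. These are the smallest of 150 members and not all days are given below, so nothing is read from whether libraries overlap. VAPB was at 133, 145 and 150 CPM in the endometrium on day 3 and at 197, 188 and 179 CPM on day 6. From there it was at 176, 167 and 171 on day 9 and at 179, 178 and 188 on day 12. In the ovary VAPB was highest on day 3, at 216 and 207 CPM, above all other libraries of the ovary. FAM120A in the ovary was at 213, 240 and 290 CPM on day 0, at 379 and 406 on day 3, at 345, 376 and 320 on day 6 and at 201, 289 and 242 on day 18. Its highest libraries were thus those of day 3, and those of days 0 and 18 overlapped. DNAJB12, a chaperone partner in the membrane of the endoplasmic reticulum, was at 65.8, 59.3 and 62.6 CPM in the oviduct on day 0, at 49.2 and 48.2 on day 6 and at 59.1, 50.2 and 62.8 on day 18. In the ovary it was at 78.9 CPM in day 12 number 1 and at 48.9, 50.9 and 43.7 CPM in the other libraries of that day. With counts scaled to the totals, none of these 3 was called, with adjusted p of 0.0693, 0.142 and 0.359.

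Between tissues, averaged over days, 107 members were called between ovary and endometrium, where 72.1% of all genes were, 105 of them higher in the ovary (35.4% of all genes were) and 2 lower (36.7%). Between ovary and oviduct 112 were called, where 75.7% of all genes were, 110 of them higher in the ovary (38.8%) and 2 lower (37%), and between oviduct and endometrium 55, where 64% of all genes were, 24 of them higher in the oviduct (31.1%) and 31 lower (32.9%). The direction belonged to the scale: with counts scaled to the totals, 66 were called between ovary and endometrium, 10 higher and 56 lower in the ovary, where 75.4% of all genes were called, 24.4% as higher and 51% as lower. On that scale 56 were called between ovary and oviduct, 27 higher and 29 lower in the ovary, where 75% of all genes were, 29.6% as higher and 45.5% as lower. Between oviduct and endometrium 72 were called on the totals, 13 higher and 59 lower in the oviduct, where 64.3% of all genes were, 27% as higher and 37.3% as lower. The median log2 difference of the members between ovary and endometrium was 0.22 on the TMM scale and -0.09 on the totals, and the median of all genes moved from -0.02 to -0.32. Between ovary and oviduct the members had 0.21 and -0.02 and all genes 0.03 and -0.19. The rule fixed the members near 0 on total counts, so these medians are a description. DESeq2 called 117 members between ovary and endometrium, 58 between oviduct and endometrium and 111 between ovary and oviduct, where it called 68.2%, 57.4% and 70.3% of all genes. Of the members, 7 differed between ovary and endometrium by at least 0.5 on the log2 TMM scale, and 0 between oviduct and endometrium, although 55 were called there.

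**Figure D5:**
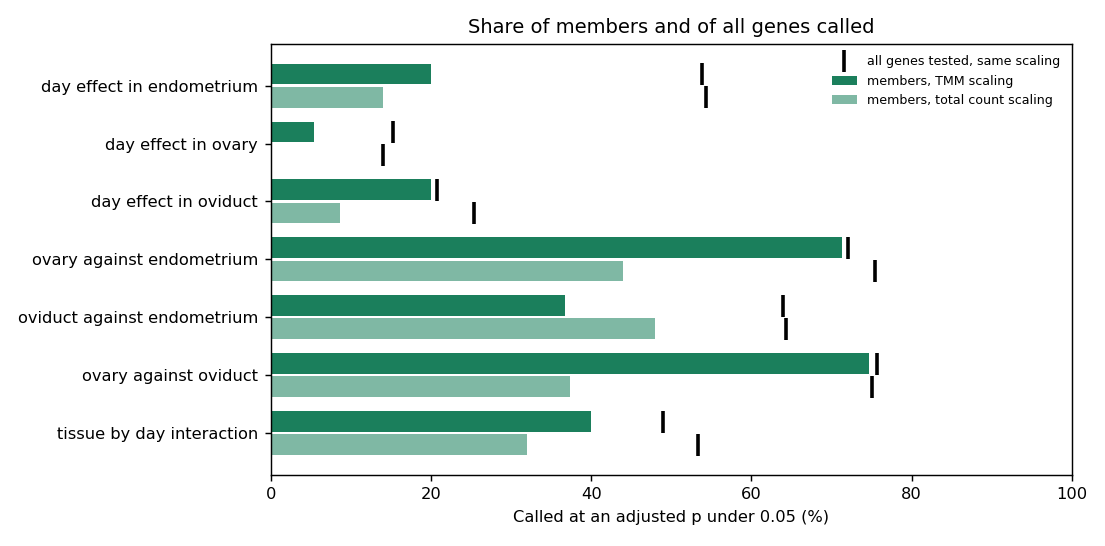
Share of the 150 members called at an adjusted p under 0.05 (bars, %) in each of 7 tests with TMM scaling (dark) and total count scaling (pale), with a black tick at the share of all genes tested. Values run from 71.3% of members beside 72.1% of all genes between ovary and endometrium with TMM to 0 beside 14% for days in the ovary on total counts; with DESeq2, not drawn, 117 members were called between ovary and endometrium, where 68.2% of all genes were.

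RAB6A, a GTPase of Golgi traffic, had the smallest adjusted p between ovary and endometrium (edgeR, 4.02e-10). Its libraries ran from 147 to 292 CPM in the ovary (median 204, n = 22), from 138 to 211 CPM in the endometrium (median 187, n = 22) and from 149.7 to 219 CPM in the oviduct (median 183, n = 22). The tissues overlapped over most of their range, and the ovary was higher by 0.55 ± 0.07 (SE) on the log2 TMM scale and by 0.23 on total counts, the scale of the CPM values. ENSSSCG00000007203 had the smallest adjusted p of both contrasts with the oviduct (edgeR, 3.54e-08 and 7.12e-15). It was at 90.6 to 139 CPM in the oviduct, 122 to 173 CPM in the ovary and 128 to 178 CPM in the endometrium (n = 22 each). It was lower in the oviduct than in the endometrium by a log2 difference of -0.30 ± 0.04 (SE), and higher in the ovary than in the oviduct by 0.50 ± 0.04 (SE), on the TMM scale. On total counts these log2 differences were -0.38 and 0.27. Both kept an adjusted p under 0.05 with counts scaled to the totals. Whether the course over days differed between tissues was tested with an interaction, which called 60 members, where 48.9% of all genes were called, and 48 with counts scaled to the totals, where 53.3% were; DESeq2 called 85, where it called 57.3% of all genes. VAPB had the smallest adjusted p (edgeR, 2.75e-05). Over the 7 tests 142 members were called at least once on the TMM scale. The 8 called in none were UNC50, TM9SF3 and VPS26A of membrane traffic, UBXN6 and UBXN8 of the p97 system, MTREX of the nuclear exosome, CTR9 of transcription elongation and ENSSSCG00000005833; they were named after their values were seen, and a p above 0.05 does not show that they were even.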

How the data were processed

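Gene counts of 66 libraries from endometrium, ovary and oviduct were used. The authors made poly-A libraries, sequenced them as paired ends, trimmed the first 13 bases and aligned reads with TopHat2 2.0.13 to Sus scrofa 10.2 with Ensembl 78; the submitters' processing notes name featureCounts, edgeR, Cufflinks and Cuffdiff. The deposited values were raw counts per gene, and the strand setting of the counting is not given in the sources used here. One further labelled sample (of 67) was not analysed here. Library numbers in the table could not be tied to those of the labels, so columns were placed by tissue and day. Symbols were paired with 11804 of 25322 identifiers.

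CPM, group means and ratios were computed with pandas 2.3.3, with a floor of 30 CPM. Tests used edgeR 4.0.16 in R 4.3.3 (quasi-likelihood, TMM, filterByExpr, Benjamini-Hochberg, threshold 0.05): days within a tissue as a joint test of 6 coefficients, tissues as contrasts of day means, and a joint test of 12 interaction coefficients. The test was checked on simulated counts with 200 changed genes. Alternatives were total counts, DESeq2 1.42.0 and its size factors, no filter, a replicate block, other floors and group values, and leaving out each library. The within-group CV is the root mean square over groups.

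The members and lists were chosen with earlier results of these data known. Genes named were ranks 1 to 10, the 3 on each side of the edge, the 2 members with the most counts, the 2 with the largest and the 2 with the smallest CV, the member with the smallest p of each test, and members of listed families; others were named after their values were seen, and some genes are not reported here. Total counts ran from 8962103 to 13442083, and counting error covers reads, not molecules.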

Additional observations from a re-analysis of the deposited data

Results flagged for a closer look

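Some libraries of groups of 4 lay farther from the other three than Dixon's critical value allows; 205 such checks gave 12 flags, and chance flags about 5% of checks. Endometrium day 15 number 2 was involved in 5 of them: the gap over the range was 0.977 for the median log2 deviation of the members, 0.953 for RAB10 (260 CPM against 211 to 214), 0.917 for PSMD4 (159 against 96.0 to 101), 0.85 for PRKACA (122 against 83.1 to 88.9) and 0.838 for FASTK, outside the list (89.1 against 50.5 to 56.7). Ovary day 12 number 1, with the lowest CYP11A1 of the ovary, was involved in 3: 0.832 for the summed share of counts on the members (2.26% against 1.88% to 1.94%), 0.894 for UBXN6 (117 CPM against 56.2 to 62.7) and 0.866 for FASTK (131 against 49.3 to 60.2). The other values were 0.888 for PRKACA in the oviduct on day 12 (95.4 CPM against 108 to 110), 0.895 for RAB10 in the same group, 0.862 for UBE2V2 in the ovary on day 15 (64.3 against 48.7 to 50.8) and 0.935 for MON2 in the endometrium on day 15 (103 against 85.0 to 86.2). For RAB10 in the oviduct the libraries lay within 1 CPM of each other.

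The interaction test (edgeR, adjusted p under 0.05) called 18 of the named members for a day course that differed between tissues. This is a description, since the rule used these libraries. The genes named by a set reason were 39, of which PRKAR1A, FASTK and RABL6 are not members. The same test called 60 of the 150 members and 48.9% of all genes, so nothing is read from the 18. Some were named for the smallest p of a test, as VAPB was for this one. The adjusted p was 2.75e-05 for VAPB, 4.34e-05 for RRAGA, 0.0001 for FAM120A, 0.000274 for PSMD4, 0.000692 for RNF10 and 0.00137 for PSMC5. It was 0.00784 for MON2, 0.0082 for AP2A2, 0.00828 for RAB6A, 0.0154 for DNAJB12, 0.0158 for PRKACA, 0.0164 for UBAP1, 0.0221 for KIAA2013, 0.0243 for CCT7, 0.0388 for EIF4H, 0.0411 for ENSSSCG00000007203, 0.0418 for ENSSSCG00000029294 and 0.0493 for TRPC4AP. Of the 18, KIAA2013, AP2A2, PSMC5, PSMD4, VAPB and FAM120A had an adjusted p under 0.05 in all 5 alternatives of scaling, filter, block and tool and in all 25 fits that left out a library.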

How the results depend on the processing

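Membership turned on the scale: of the 150 members, 39 were kept with TMM-scaled CPM, 34 with DESeq2 size factors, 56 with a floor of 100 CPM, 97 with group medians, 76 with each library as a group, 95 without the 10 genes with most counts, 70 on the libraries numbered 3 and 97 on the remaining ones. The highest ratio among the members was 2.35 with TMM, 2.38 with DESeq2 size factors and between 1.61 and 1.98 on leaving out a library. Members called over days in the endometrium were 14 with the replicate block and 57 with DESeq2, where 48.2% and 57.7% of all genes were called. On leaving out a library they were 15 to 47, where the share of all genes ran from 48% to 61.7%. In the ovary they were 0 on total counts, where 14% of all genes were called (4 members at an unadjusted p under 0.05 by edgeR). They were 32 by DESeq2 (30.4% of all genes), 3 without a filter (9.65%) and 1 with the replicate block (10.8%). On leaving out a library they were 1 to 26 (8.49% to 28.2% of all genes). In the oviduct they were 13 on total counts (25.3% of all genes), 12 without a filter (14.2%), 13 with the block (16.5%) and 55 with DESeq2 (32.9%). On leaving out a library they were 6 to 39 (13.6% to 26.5% of all genes). Between tissues, total counts gave 66 between ovary and endometrium and 56 between ovary and oviduct, where 75.4% and 75% of all genes were called. The median log2 difference of the members turned to -0.086 and -0.017 in these contrasts on total counts, and between oviduct and endometrium from -0.018 to 0.0204 with DESeq2 size factors, 0.0215 without a filter and 0.02035 with DESeq2. Beyond the change of scale itself, the cause was not tested. Deviations of libraries with the same number on a day, in different tissues, had a median correlation of 0.123 and were over 0.1 in 42 of 63 pairs, against -0.052 for pairs with different numbers, 10 of which were over 0.1. This is a hint that numbers may mark gilts, but no source says so and not every pair passed. The block was therefore kept as an alternative. In the tissue and interaction tests it joined libraries with the same day and number. In the day tests it was the number alone, shared over days, so there it does not stand for a gilt. With the block the interaction called 50 members, where 44.6% of all genes were called. The interaction and tissue tests were repeated without each of the 21 libraries numbered 3 and, chosen after seeing the data, without ovary day 12 number 1, ovary day 15 number 1, endometrium day 15 number 2 and oviduct day 18 number 2. The members called ran from 104 to 114 (ovary against endometrium), 53 to 64 (oviduct against endometrium), 106 to 119 (ovary against oviduct) and 51 to 77 (interaction). In the same order, the share of all genes called ran from 69.1% to 72.9%, 61% to 65.1%, 73.2% to 76.8% and 45.3% to 56.5%. Members lower in the ovary, 2 in each contrast, ran from 1 to 2 and from 1 to 3. The remaining libraries were not left out of these tests. The alternative on the libraries numbered 0 or 1 in the labels was not run, since those numbers could not be tied to columns. At the lowest count of a member, 118, counting error was 9.21%.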
